A study of Mus musculus with 24 samples.

Results

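The run response was read in the 13 arrays of 24 whose lymphoid signal was low, 7 from unexercised and 6 from exercised mice. An array was kept when the mean of 3 lymphocyte probes in the submitters' log2 values was under 7.5: Cd79b, a chain of the B cell receptor, Cd3e, a chain of the T cell receptor complex, and Fcmr, the receptor for IgM. For each gene the probe with the highest mean over the 24 arrays was used. The arrays were thus selected on these 3 measured levels, which are given as a description only.

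The muscle was the gastrocnemius and soleus complex of female mice aged 5 weeks, and that of exercised mice was taken 3 hours after the run. Exercised mice ran downhill once on a treadmill for 40 min at a downward slope of 20 degrees and 17 m/min, reached from 10 m/min during a warm-up of 2 min. Unexercised mice were sedentary controls, with no time after a run listed. Wild-type (WT) mice carried no transgene, and transgenic (TG) mice overexpressed the alpha7BX2 integrin chain, a laminin receptor of the muscle fibre. Neither the promoter that drives the transgene nor the strain background was stated in the labels. The kept arrays were 3 WT unexercised, 4 WT exercised, 4 TG unexercised and 2 TG exercised, and they are named here by group and by the number in their label. The labels give 6 female mice to each of the groups, and each group has 6 arrays in the series. Levels are on a log2 scale after background correction and quantile normalisation, so a difference of 1 is a doubling of signal, and levels of different probes are not compared with each other.

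The kept arrays spanned a mean of the 3 lymphocyte probes from 4.84 to 6.16, with TG unexercised array 3 nearest the threshold. The lowest array left out was TG exercised array 11, at 8.55, and thresholds of 7 and 8 selected the same 13 arrays. The kept arrays were not free of lymphoid signal. Of 25 lymphocyte markers with a probe, 4 were above background on all 13 kept arrays and 8 on none, and 20 were above background on all 11 arrays left out. Of those 4, Cd79b was part of the choice of arrays. Fcer2a, the low-affinity IgE receptor of B cells, had a median of 5.82 on kept and 8.27 on left-out arrays, and Thy1, of T cells and other cells, of 10.57 and 11.13. Cd8b1, a T cell coreceptor chain, did not follow the class, with medians of 10.90 and 10.61. The mean level of the marker list was 5.25 to 5.67 on the kept arrays and 6.85 to 9.05 on the others. Glycam1, a mucin of the high endothelial venules of lymph nodes, was above background on 7 kept arrays. It stood at 9.53 on TG unexercised array 3, 9.40 on WT exercised array 5 and 8.45 on TG unexercised array 8, while the other kept arrays read 7.25 or less. The arrays are therefore called arrays with low lymphoid signal. In bulk tissue, fewer cells of a type and less RNA per cell cannot be told apart.

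**Figure D1:**
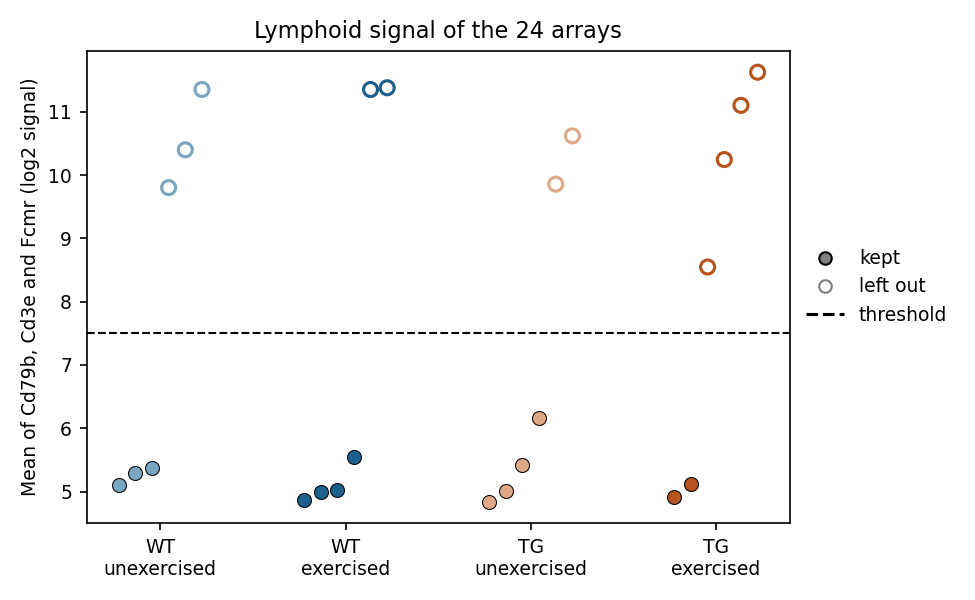
Mean log2 signal of the Cd79b, Cd3e and Fcmr probes on each of the 24 arrays, by genotype and exercise group. Filled points are the 13 kept arrays (4.84 to 6.16), open points the 11 arrays left out (8.55 and above), and the dashed line is the threshold of 7.5; points are spread sideways only for legibility.

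Across the series the median signal per array was 105.2 to 137.9 intensity units, and 40.2% to 46.2% of probes were above background. The kept arrays divided by slow fibre signal. The first component of their residuals after exercise and genotype were fitted held 50.1% of the variance and separated 7 arrays with a high mean of 16 slow fibre genes from 6 with a low one. The high class held 3 of the 7 unexercised and 4 of the 6 exercised arrays. List medians that moved by over 1.5 times with the slow fibre mean as a covariate are given with that value too. The Itga7 probe with the highest level read 9.14 ± 0.20 (SD, n = 3) in WT and 9.28 ± 0.35 (SD, n = 4) in TG unexercised arrays. The sources used here do not say whether that probe reads the transgene.

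A bout of downhill running loads muscle while it lengthens. In the hours that follow, muscle is known to induce stress genes, immediate early transcription factors, targets of glucocorticoid hormones released during exercise, and the coactivator PGC-1alpha, which drives mitochondrial and oxidative genes. Metallothioneins are small cysteine-rich proteins that bind zinc and copper, and their genes respond to zinc through the metal-sensing factor MTF-1, to glucocorticoids and to oxidants.

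The run response was led by the metallothionein Mt1, which read 2.67-fold higher after the run on arrays with low lymphoid signal, with every exercised array above every unexercised one. Mt2 read 2.98-fold and Ppargc1a 2.24-fold higher. Neither these nor any other feature passed the test. limma, fitted over 13291 features with genotype as a covariate, called 0 at an adjusted p under 0.05 (percent called 0), and the smallest adjusted p was 0.211, for Mt1. At an unadjusted p under 0.05 there were 763 features (5.74%), 431 higher (3.24%) and 332 lower (2.5%) after the run. On 19 features (0.143%) all exercised arrays stood above all unexercised arrays, and on 14 (0.105%) all stood below. Mt1, Mt2 and Ppargc1a were named as markers with earlier results of these data known.

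The sequences around the starts of the 3 marker genes are shown because metallothionein genes are known for a short motif through which MTF-1 binds them. They are RefSeq promoters of build GRCm38.p6, 250 bases before to 50 after the start, written in the direction of the gene. Mt1 lies on the + strand at chr8:94178839-94179138, Mt2 on the + strand at chr8:94172368-94172667, and Ppargc1a on the - strand at chr5:51567676-51567975. In Mt1 and Mt2 the capitals mark TGCNCNC, a relaxed core of the metal response element, on either strand. In Ppargc1a they mark TGACG, the letters shared by cyclic AMP response elements, on either strand.
Mt1: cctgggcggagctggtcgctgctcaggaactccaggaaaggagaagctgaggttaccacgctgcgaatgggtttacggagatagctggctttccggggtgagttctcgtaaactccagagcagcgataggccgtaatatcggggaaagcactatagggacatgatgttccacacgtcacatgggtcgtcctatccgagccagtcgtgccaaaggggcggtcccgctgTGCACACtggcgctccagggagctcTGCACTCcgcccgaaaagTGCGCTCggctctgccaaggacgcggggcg
Mt2: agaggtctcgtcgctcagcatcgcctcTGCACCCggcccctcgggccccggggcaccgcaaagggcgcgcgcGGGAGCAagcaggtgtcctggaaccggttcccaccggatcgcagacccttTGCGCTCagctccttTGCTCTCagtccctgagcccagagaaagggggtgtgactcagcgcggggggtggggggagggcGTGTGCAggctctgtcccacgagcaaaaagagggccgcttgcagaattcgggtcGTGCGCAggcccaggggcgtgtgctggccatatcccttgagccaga
Ppargc1a: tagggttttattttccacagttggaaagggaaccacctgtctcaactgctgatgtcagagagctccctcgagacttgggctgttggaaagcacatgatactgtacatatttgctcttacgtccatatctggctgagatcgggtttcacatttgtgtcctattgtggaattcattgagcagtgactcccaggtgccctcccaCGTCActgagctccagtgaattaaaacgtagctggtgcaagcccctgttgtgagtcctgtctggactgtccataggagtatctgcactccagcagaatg

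TGCNCNC occurred 3 times in the Mt1 window and 6 times in the Mt2 window, with no overlap between copies. Of 32851 promoters of the same length, 51% held at least 1 copy, 7.1% at least 3 and 0.225% at least 6. The window of Dbp, which read lower, held 5 copies in 4 separate stretches, and that of Srxn1, which read higher, held 3. Whether copies go with the direction of the difference was not tested. The Ppargc1a window held 2 copies of it and 1 copy of TGACG, which 20.8% of promoters held. The full palindrome TGACGTCA was in none of the 3 windows and in 1.79% of all promoters. Each of the 3 genes had 1 window, so other starts of these genes were not looked at. A match describes letters in these windows and shows no binding.

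Mt1 encodes the metallothionein of most tissues, muscle included. It read 13.36, 13.36 and 12.42 on WT unexercised arrays 1, 3 and 11. Levels were 12.37, 12.42, 12.26 and 13.31 on TG unexercised arrays 3, 8, 11 and 5. After the run it read 13.96, 14.79, 14.43 and 14.29 on WT arrays 1, 2, 3 and 5, and 14.02 and 14.24 on TG arrays 4 and 5. The lowest exercised array, at 13.96, was above the highest unexercised array, at 13.36, so the groups did not overlap. The difference was 1.41 (SE 0.22; interval at 95% from 0.95 to 1.88). It was 1.32 (SE 0.30) in WT and 1.54 (SE 0.34) in TG arrays, and 1.30 (SE 0.20) with the slow fibre mean as a covariate.

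Mt2, which lies beside Mt1 and encodes the second widely expressed metallothionein, was read by a probe of lower signal. On unexercised arrays it ranged from 5.70 to 7.59 with a median of 6.42, and on exercised arrays from 7.30 to 8.94 with a median of 8.22. The groups overlapped, since WT unexercised array 3 at 7.59 stood above TG exercised array 4 at 7.30. The difference was 1.57 (SE 0.32, adjusted p 0.587), 1.75 (SE 0.43) in WT and 1.35 (SE 0.49) in TG arrays. Of 13 metallothionein and zinc-handling genes, 10 were measured, 7 read higher and 3 lower, with a median difference of 0.10 beside 0.02 over all features, of which 55.4% read higher. Apart from Mt1 and Mt2, none of the 10 differed by more than 0.22 in either direction. Slc39a10 (0.22, SE 0.15) and Slc39a1 (0.19, SE 0.12), zinc importers of the ZIP family, read higher, but 1 array carried much of each value. Without WT exercised array 2 Slc39a10 differed by 0.11, and without TG exercised array 5 Slc39a1 differed by 0.08. Mtf1, the metal-sensing factor itself, differed by -0.09 (SE 0.09), and Mt3, the brain-type metallothionein, by -0.18 (SE 0.25). Mt4, Slc39a8 and Slc39a14 were under the detection filter.

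Ppargc1a, which encodes PGC-1alpha, read 10.73, 10.21 and 9.48 on WT unexercised arrays 1, 3 and 11 and 10.30, 9.46, 9.54 and 10.58 on TG unexercised arrays 3, 8, 11 and 5. It read 10.96, 11.96, 12.00 and 11.30 on WT exercised arrays 1, 2, 3 and 5, and 10.76 and 10.85 on TG exercised arrays 4 and 5. The groups did not overlap, but the gap was narrow, from 10.73 to 10.76. The difference was 1.16 (SE 0.27, adjusted p 0.658), 1.41 (SE 0.36) in WT and 0.83 (SE 0.40) in TG arrays. Slow fibre signal moved with it: the difference was 0.92 (SE 0.18, adjusted p 0.351) with the slow fibre mean as a covariate, 0.63 (SE 0.30) within the 7 arrays of high and 1.40 (SE 0.21) within the 6 of low slow fibre signal. A second probe of the gene was above background on 0 of the 13 arrays and gives no level.

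**Figure D2:**
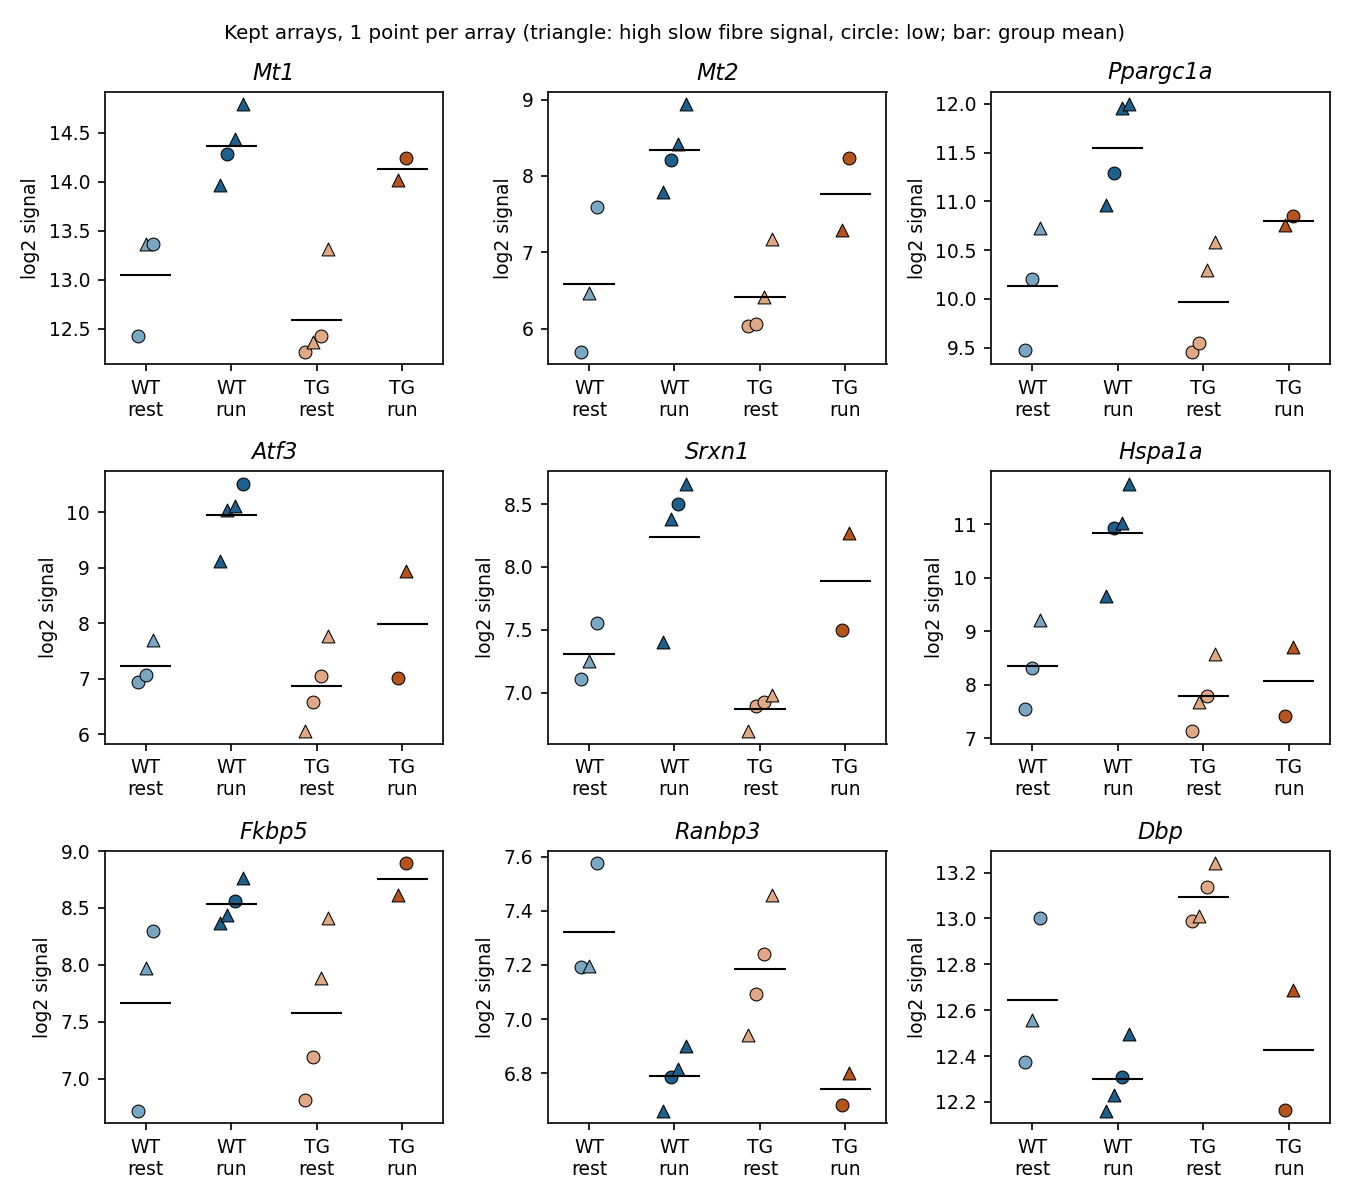
Log2 signal of 9 genes on each kept array, by genotype before (rest) and after the run; bars are group means, triangles are arrays of high and circles arrays of low slow fibre signal, and each panel has its own axis that does not start at 0. Mt1 and Ppargc1a show no overlap between exercised and unexercised arrays, and Hspa1a and Atf3 stood highest on WT exercised arrays.

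The 5 features with a symbol and the smallest p that read higher were Mt1, Inpp5d, Mt2, Atf3 and Srxn1. Atf3, a stress-induced transcription factor of the ATF/CREB family, had the largest difference of all features tested, 2.01 (SE 0.41, adjusted p 0.587). It ranged from 6.05 to 7.77 at rest with a median of 7.04, and from 7.02 to 10.51 after the run with a median of 9.58. TG exercised array 5, at 7.02, lay within the unexercised range, and every other exercised array lay above it. Srxn1, the sulfiredoxin that reactivates oxidised peroxiredoxins, differed by 0.97 (SE 0.20), from 6.69 to 7.55 at rest and from 7.40 to 8.66 after the run. Its groups overlapped through WT exercised array 1 at 7.40 and TG exercised array 5, and its other probes differed by 0.55 and 0.79 in the same direction. Inpp5d, the inositol phosphatase SHIP of blood cells, differed by 0.88 (SE 0.17) with no overlap, from 4.60 to 5.46 at rest and from 5.75 to 6.65 after the run. It was above background on 4 of 7 unexercised and 6 of 6 exercised arrays.

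The 5 that read lower were Cby1, Ranbp3, Wnt4, Vac14 and Dbp, all with smaller differences. Cby1, an antagonist of beta-catenin, differed by -0.54 (SE 0.11, adjusted p 0.587) with no overlap, and was above background on 7 of 7 unexercised but 2 of 6 exercised arrays. Its other probe was above background on none. Ranbp3, a nuclear export cofactor, differed by -0.49 (SE 0.11, adjusted p 0.658), from 6.94 to 7.57 at rest and from 6.66 to 6.90 after the run. All its exercised arrays were below all its unexercised ones. Wnt4, a secreted Wnt ligand, differed by -0.46 (SE 0.11), and its groups met at TG exercised array 5. Vac14, a scaffold of the lipid kinase complex that makes phosphatidylinositol bisphosphate on endosomes, differed by -0.50 (SE 0.14). Dbp, a clock-controlled PAR-bZIP transcription factor, differed by -0.49 (SE 0.13), from 12.37 to 13.24 at rest and from 12.16 to 12.69 after the run, with overlap.

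Of the 19 features whose exercised arrays were all above, 15 had a symbol. Besides Mt1, Ppargc1a and Inpp5d they were Cycs, Exoc8, Sfswap, Serinc1, Zfp281, Zfp760, Noct, Tmem131l, Zfp961, Tlr5, Dnajb4 and Plod2. Cycs encodes cytochrome c, Noct the rhythmic phosphatase nocturnin, Tlr5 the flagellin receptor and Plod2 a collagen lysyl hydroxylase. The 11 with a symbol among the 14 that were all below were Cby1, Ranbp3, Ccdc88c, Zfp82, Ap4s1, Arl2, Mtrf1, Phkg1, Klhl31, Ndufa7 and 2210016L21Rik. Phkg1 is the catalytic subunit of muscle phosphorylase kinase, Klhl31 a Kelch protein of skeletal muscle and Ndufa7 a subunit of respiratory complex I. These 33 features were picked for this separation, so their differences are given no further test.

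Heat shock proteins and co-chaperones, which refold or escort damaged protein, read higher in 24 of 30 measured genes, beside 55.4% of all features. Their median difference was 0.20, beside 0.02 over all features, and 8 had an unadjusted p under 0.05, all higher, where 3.24% of all features were. None passed the adjusted test. The gene lists of this report were chosen with earlier results of these data known, so their counts are a description only. Hspa1a, an inducible member of the Hsp70 family, had the largest difference of the list, 1.51 (SE 0.48, adjusted p 0.784). The Hspa1a probe of highest signal read 7.55 to 9.21 on WT unexercised and 9.65 to 11.75 on WT exercised arrays. On TG arrays it read 7.13 to 8.58 at rest and 8.71 and 7.42 after the run. The groups of both genotypes together overlapped. Dnajb4, a DNAJ partner of Hsp70, differed by 0.54 (SE 0.14) with no overlap. Hspb8 (0.43, SE 0.11), a small heat shock protein, and Bag3 (0.34, SE 0.11), the co-chaperone that works with it in clearing damaged sarcomere protein, read higher with overlap.

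Glucocorticoid receptor targets read higher in 17 of 22 measured genes, with a median of 0.15 beside 0.02 over all features, of which 55.4% read higher. At an unadjusted p under 0.05 there were 4, all higher, where 3.24% of all features were. Fkbp5, a co-chaperone that restrains the receptor, ranged from 6.72 to 8.42 at rest with a median of 7.89, and from 8.37 to 8.89 after the run with a median of 8.59. The lowest exercised array and the highest unexercised array overlapped by a small amount, and the difference was 1.00 (SE 0.28, adjusted p 0.658). Zbtb16, a zinc finger repressor, differed by 0.92 (SE 0.39), Tsc22d3, which encodes the anti-inflammatory protein GILZ, by 0.46 (SE 0.19), and Glul, glutamine synthetase, by 0.41 (SE 0.19).

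Immediate early and AP-1 factors, the first genes transcribed after a stimulus, read higher in 16 of 23, beside 55.4% of all features. Their median was 0.09, or 0.15 with the slow fibre covariate. Besides Atf3, Junb, an AP-1 subunit, differed by 0.40 (SE 0.10), Ccn1, a secreted matricellular protein, by 0.45 (SE 0.17), and Arc, the activity-regulated cytoskeletal protein, by 0.57 (SE 0.17). Arc was above background on 2 of 7 unexercised and 6 of 6 exercised arrays. PGC-1 coactivators, their partners and targets of CREB read higher in 18 of 26, with a median of 0.13. Pde4d, a phosphodiesterase that breaks down cyclic AMP, differed by 0.82 (SE 0.23), Nrip1, a corepressor that opposes PGC-1alpha, by 0.75 (SE 0.21), and Crem, a cyclic AMP responsive factor, by 0.62 (SE 0.21). With the slow fibre mean as a covariate the median of that list was 0.01.

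**Figure D3:**
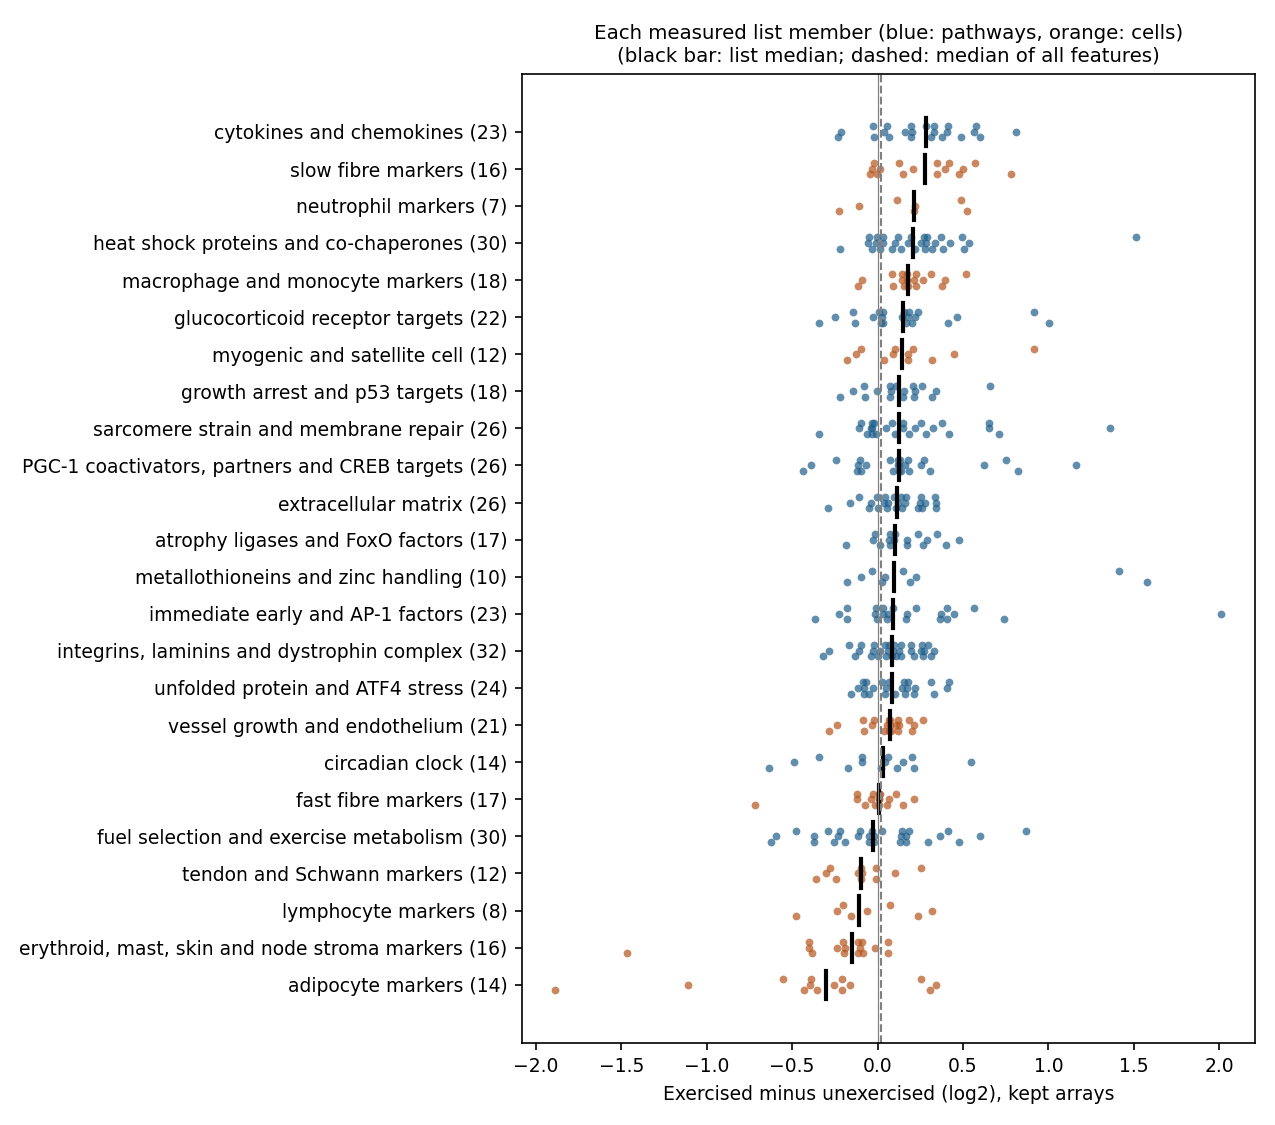
Exercised minus unexercised difference (log2) on the kept arrays for each measured member of 24 gene lists, with the number measured in brackets; blue points are pathway lists and orange points cell markers, black bars are list medians and the dashed line is the median of all features, 0.02. List medians run from -0.30 for adipocyte markers to 0.28 for cytokines and chemokines and for slow fibre markers.

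Genes of fuel choice divided, 13 higher and 17 lower of 30, where 55.4% of all features read higher. Their median was -0.03, or -0.02 with the slow fibre covariate. Ppp1r3c, which targets phosphatase to glycogen, differed by 0.87 (SE 0.22) and Pdk4, the kinase that holds pyruvate back from oxidation, by 0.60 (SE 0.17). Cd36, a fatty acid transporter read by a probe above background on 9 of 13 arrays, differed by 0.48 (SE 0.17). Pfkfb3, an enzyme whose product activates glycolysis, differed by -0.63 (SE 0.23). Clock genes also divided, 8 higher and 6 lower of 14, with a median of 0.03 that was -0.15 with the slow fibre covariate. Arntl, the activator BMAL1, differed by 0.55 (SE 0.20), Ciart, a clock repressor, by -0.64 (SE 0.25), and Nr1d2, the repressor REV-ERB beta, by 0.21 (SE 0.14).

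Sarcomere strain and membrane repair genes read higher in 16 of 26, beside 55.4% of all features. Their median was 0.13, which was 0.00 with the slow fibre mean as a covariate. Ankrd1, a titin-bound strain sensor, differed by 1.36 (SE 0.46) and Mustn1, a muscle regeneration protein, by 0.71 (SE 0.25). Abra, an actin-binding protein of striated muscle, differed by 0.65 (SE 0.14), and Flnc, muscle filamin, by 0.65 (SE 0.35). All 4 overlapped between groups. Of myogenic and satellite cell genes, 9 of 12 read higher (median 0.14, or 0.02 with the slow fibre covariate), led by Musk, the agrin-responsive kinase of the neuromuscular junction, which differed by 0.92 (SE 0.21, adjusted p 0.658). Musk ranged from 5.66 to 7.15 at rest and from 6.98 to 7.98 after the run. Myf6, the myogenic factor of mature fibres, differed by 0.45 (SE 0.12), Megf10, a satellite cell receptor, by 0.32 (SE 0.20), and Vcam1 by 0.18 (SE 0.09).

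Unfolded protein genes read higher in 16 of 24, beside 55.4% of all features (median 0.08, or 0.15 with the slow fibre covariate). Hsp90b1, the chaperone of the endoplasmic reticulum, stood at 0.41 (SE 0.13) and Herpud1, of its degradation pathway, at 0.22 (SE 0.09). Dnajc3, a co-chaperone in that compartment, stood at 0.33 (SE 0.17) and Atf4, the stress factor, at 0.14 (SE 0.08). Growth arrest and p53 targets read higher in 13 of 18 (median 0.13, or 0.07 with the slow fibre covariate). Cdkn1a, the cell cycle inhibitor p21, differed by 0.34 (SE 0.14), Rrad, a small GTPase that limits calcium channels, by 0.66 (SE 0.33), Plk2, a polo-like kinase, by 0.26 (SE 0.15), and Trp53inp1 by 0.21 (SE 0.12). Atrophy ligases and FoxO factors read higher in 14 of 17 (median 0.10, or 0.07 with the slow fibre covariate), and Foxo3 differed by 0.47 (SE 0.16) and the ubiquitin ligases Cblb by 0.40 (SE 0.16), Fbxo30 by 0.29 (SE 0.15) and Fbxo32 by 0.35 (SE 0.22).

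Cytokines, chemokines and their receptors read higher in 19 of 23 measured genes, with a median of 0.28 beside 0.02 over all features, of which 55.4% read higher. At an unadjusted p under 0.05 there were 5, all higher, where 3.24% of all features were. Tnfrsf12a, the receptor for TWEAK, differed by 0.81 (SE 0.27), from 8.58 to 10.28 at rest and from 9.42 to 11.20 after the run. Socs3, which shuts off JAK-STAT receptors, differed by 0.57 (SE 0.19), Cxcl14, a chemokine, by 0.41 (SE 0.17), and Osmr, the oncostatin M receptor, by 0.31 (SE 0.13). Matrix genes read higher in 20 of 26 (median 0.11, or 0.21 with the slow fibre covariate), among them Col4a1, of basement membrane collagen, by 0.33 (SE 0.15), Col15a1 by 0.34 (SE 0.16), Adamts1, a matrix protease, by 0.34 (SE 0.18), and Loxl1, a cross-linking oxidase, by 0.17 (SE 0.11). Integrins, laminins and the dystrophin complex read higher in 23 of 32 (median 0.09, or 0.03 with the slow fibre covariate). Within it Itga9 differed by 0.27 (SE 0.11), the laminin chain Lamc1 by 0.27 (SE 0.12), utrophin (Utrn), above background on 6 of 13 arrays, by 0.33 (SE 0.16), and vinculin (Vcl) by 0.26 (SE 0.13). Itga7 itself differed by 0.09 (SE 0.17).

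Markers of other cells were read beside these groups. Over all features 55.4% read higher. Lymphocyte markers, of which 8 of 33 were measured, were higher in 3 and lower in 5 after the run (median -0.11). Cd79b and Fcmr are among the 8 and were part of the choice of arrays, so this count is no independent check. Fcmr, above background on 6 of 13 arrays, differed by -0.48 (SE 0.24), Ccr7, on 7 of 13, by -0.24 (SE 0.18), Thy1 by 0.32 (SE 0.14) and Cd247 by 0.24 (SE 0.15). The mean of the measured lymphocyte markers was 6.53 to 7.05 at rest and 6.63 to 6.87 after the run. Of 20 neutrophil markers 7 were measured, with a median of 0.22, or 0.29 with the slow fibre covariate. S100a9 (0.49, SE 0.34), Retnlg (0.52, SE 0.36), Csf3r (0.22, SE 0.23) and Hp (-0.23, SE 0.36) differed by less than 1.5 times their errors. Without TG exercised array 5 Retnlg differed by 0.08 and Csf3r by 0.09. Without WT unexercised array 11 S100a9 differed by 0.29, and without WT unexercised array 1 Hp differed by -0.03. Their mean was 5.76 to 7.04 at rest and 6.33 to 7.26 after the run, and Ngp, Ltf, Elane, Prtn3, Cxcr2 and Mmp8 were above background on no kept array. Macrophage and monocyte markers read higher in 16 of 18 (median 0.18), with Ctss at 0.52 (SE 0.31), Cd14 at 0.38 (SE 0.28), C1qb at 0.31 (SE 0.26) and Lyve1 at 0.40 (SE 0.34). Their mean was 8.38 to 9.503 at rest and 8.58 to 9.93 after the run. With the slow fibre mean as a covariate the median of the macrophage list was 0.43. The part of these cells in the results above was not tested.

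Adipocyte markers read lower in 11 of 14 (median -0.30). Ucp1, the uncoupling protein of brown fat, differed most, by -1.89 (SE 0.96, adjusted p 0.838), and ranged from 5.87 to 11.29 at rest and from 4.46 to 9.70 after the run. Dgat2, which makes triglyceride, differed by -0.55 (SE 0.24), Car3, a carbonic anhydrase of fat and muscle, by -0.43 (SE 0.23), and Plin4, a lipid droplet coat protein, by 0.34 (SE 0.17). The list mean was 8.58 to 10.13 at rest and 8.09 to 9.78 after the run, and its median difference was -0.08 with the slow fibre covariate. Markers of red cells, mast cells, skin and lymph node stroma read lower in 14 of 16 (median -0.15, or -0.04 with the slow fibre covariate), among them Glycam1 by -1.47 (SE 0.97), Ccl21a, a chemokine of lymphatic vessels, by -0.40 (SE 0.24), and the globins Hba-a1 by -0.40 (SE 0.24) and Hbb-bt by -0.24 (SE 0.19). Slow fibre markers read higher in 12 of 16 (median 0.28), with Myl6b at 0.78 (SE 0.42), Tnni1 at 0.57 (SE 0.35), Casq2 at 0.50 (SE 0.30) and Tnnc1 at 0.48 (SE 0.37). With their own mean as a covariate that median was 0.02, which is brought toward 0 by construction and is no check. The slow list mean was 10.98 to 12.02 at rest and 11.14 to 12.12 after the run. Fast fibre markers read higher in 10 of 17, beside 55.4% of all features (median 0.01, or -0.01 with the slow fibre covariate). Their differences ran from -0.72 to 0.21, and 1 had an unadjusted p under 0.05, lower, where 2.5% of all features were. Casq1, of this list, ranged from 11.24 to 12.53 at rest with a median of 12.32. After the run it ranged from 10.84 to 12.56 with a median of 11.14. Vessel genes read higher in 15 of 21 (median 0.07, or 0.18 with the slow fibre covariate) and tendon and Schwann markers in 2 of 12 (median -0.10, or 0.00).

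The genotypes were then compared for their run response. Within WT arrays limma called 0 features (803 at an unadjusted p under 0.05, 6.04%), within TG arrays 0 (346, 2.6%), and 0 for the difference between them (294, 2.21%). The smallest p for that difference came from Arid5b, a chromatin regulator of fat and muscle metabolism, at 1.19, Slc35f5, a transporter-like protein, at 1.18, and Arntl at 1.11 (TG minus WT, each adjusted p 0.92). Arid5b was above background on 8 of the 13 arrays and Slc35f5 on 7. Arntl stood at 7.77 to 8.34 on WT unexercised and 8.00 to 8.30 on WT exercised arrays. On TG arrays it stood at 6.67 to 7.36 at rest and at 8.06 and 8.29 after the run. Arntl is named here because its p was among the 3 smallest, so these values are a description only. For the markers the difference was 0.22 in Mt1 (interval at 95% from -0.75 to 1.19), -0.41 in Mt2 (-1.83 to 1.01) and -0.58 in Ppargc1a (-1.75 to 0.59). Hspa1a differed by -2.21 (SE 0.79), also with an adjusted p of 0.92. With 2 TG exercised arrays these intervals are wide.

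The same contrast was fitted in the 11 arrays with high lymphoid signal, to see whether the response of the kept arrays differed from theirs. The difference between the classes was called in 0 features (516 at an unadjusted p under 0.05, 3.88%). In that fit Mt1 differed by 1.496 (SE 0.21) on kept and 1.15 (SE 0.23) on left-out arrays, Mt2 by 1.68 (SE 0.32) and 1.52 (SE 0.34), and Ppargc1a by 1.17 (SE 0.29) and 1.06 (SE 0.31). The left-out minus kept difference was -0.34 in Mt1 (interval at 95% from -1.01 to 0.32), -0.16 in Mt2 (-1.14 to 0.82) and -0.11 in Ppargc1a (-1.004 to 0.78). These markers were named with earlier results of these data known, so their values on the left-out arrays are no independent check. The smallest p for the class difference came from Mx2, an interferon-induced GTPase, at -1.21, Kcnh1, a potassium channel, at -0.82, and Plod2 at -0.67, each with an adjusted p of 0.817.

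Genes picked for their small p on the kept arrays stood nearer 0 on the left-out arrays, which had no part in that choice. Inpp5d differed there by 0.11 (SE 0.17), Srxn1 by 0.46 (SE 0.26), Cby1 by 0.07 (SE 0.13) and Ranbp3 by -0.03 (SE 0.11). Wnt4 differed by -0.14 (SE 0.14), Vac14 by -0.03 (SE 0.14) and Dbp by -0.37 (SE 0.18). Atf3 differed by 1.53 (SE 0.61) there. Hspa1a, named from its list and not by that ranking, differed there by 1.64 (SE 0.65). For none of these did the class difference pass the test. The median residual SD of a feature was 0.266 within the kept arrays, 0.267 within the left-out arrays and 0.303 over all 24 together.

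**Figure D4:**
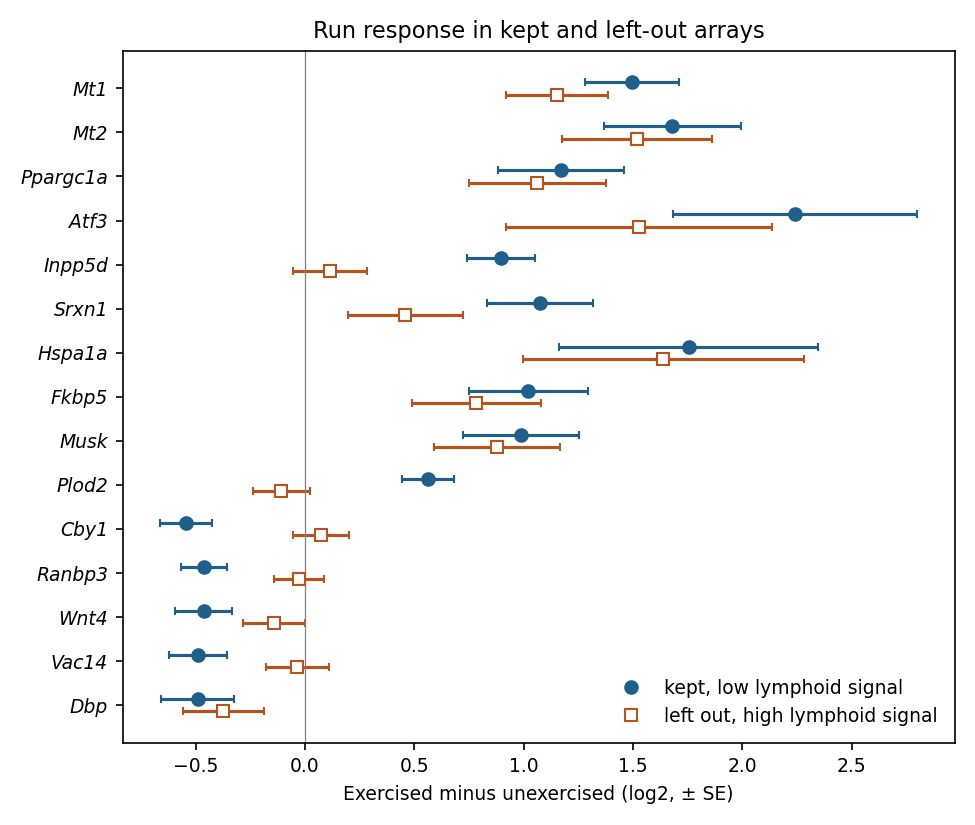
Exercised minus unexercised difference (log2, ± SE) of 15 genes in the fit over all 24 arrays, on the 13 kept arrays (filled circles) and the 11 left out (open squares). Mt1, Mt2 and Ppargc1a stood above 1 in both classes, while Inpp5d, Plod2, Cby1, Ranbp3 and Vac14 stood near 0 on the left-out arrays. The markers were named with earlier results of these data known. Inpp5d, Cby1, Ranbp3 and Vac14 were picked on the kept arrays, and Plod2 also for its class difference. The contrast between these sets follows in part from how they were chosen and is no independent check.

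Which features passed depended on which arrays were used and how they were weighted. With all 24 arrays limma called 3 features, Mt1 (1.34, SE 0.15, adjusted p 7.29e-05), Mt2 (1.58, SE 0.23, adjusted p 0.0025) and Ppargc1a (1.12, SE 0.20, adjusted p 0.0437). With array weights, which give less weight to arrays that depart from the fit, the 13 kept arrays gave 607 calls (4.57%), 255 higher (1.92%) and 352 lower (2.65%). Mt1 (adjusted p 0.0155), Mt2 (0.0444), Ppargc1a (0.0444), Atf3 (0.0155), Hspa1a (0.0444) and Fkbp5 (0.0444) were among those that rose in that fit. The lowest weights, 0.38 to 0.43, fell on the 3 arrays numbered 5, and the highest, 2.26, on TG exercised array 4.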

How the data were processed

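RNA of each muscle was amplified to biotin-labelled cRNA and hybridised to 1-colour Illumina bead arrays, per the labels' protocols. The deposited file that was not normalised gives 1 signal intensity and 1 detection p-value for each of 45281 probes and each array. The submitters also deposited normalised log2 values, made with R 3.1.1 and limma 3.20.8, per the submitters' processing notes; neither scanner nor bead summary software is named. Those log2 values chose the arrays. All else was computed here with limma 3.58.1 in R 4.3.3: neqc on all 24 arrays with an offset of 16, which differed from the submitters' values by at most 0.027.

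Probes with a detection p-value under 0.05 on at least 6 of the 13 kept arrays were used (19026), and each gene symbol was represented by its probe of highest mean signal, giving 13291 features, 10547 with a symbol. Of all probes, 34885 had 1 symbol, 18 several and 10378 none. lmFit and eBayes fitted exercise with genotype as a covariate, and p-values were adjusted by Benjamini-Hochberg over all features. Signs of differences are exercised minus unexercised. The genotypes were compared through 4 group means, and the kept with the left-out arrays through an interaction over 24 arrays. On simulated data with 13291 genes the run contrast in the kept arrays recovered 86% of log2 changes of 1 and 99% of changes of 2, with 15 false calls. The simulated noise was independent between genes, while in the kept arrays 1 component held 50.1% of the residual variance. The simulation therefore checks the code and does not give the share of real changes that these arrays could find.

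The arrays, the gene lists and Mt1, Mt2 and Ppargc1a were chosen with earlier results of these data known. Named genes were those markers, the 5 smallest p in each direction, up to 4 members of each list by p, the 3 smallest p of each difference between groups, Itga7 and the genes that chose the arrays; those whose arrays did not overlap, Mt3, Mtf1, Fcer2a, Cd8b1 and members under the detection filter were named after their values were seen. The labels give 6 females to a group, so each array was taken as a mouse. Same-numbered kept arrays had residual correlations of 0.49, -0.08 and -0.51, so the numbers were not used as pairs. Slides and scans are not named in the labels. The number of arrays limits the precision.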

Additional observations from a re-analysis of the deposited data

Results flagged for a closer look

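In groups of 4 arrays, the highest or lowest array of a gene was set against the gap to its nearest neighbour (Dixon's test). Of 178 such tests of named genes 13 passed, and chance passes about 1 in 20 groups. No explanation was tested.

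Of these 13, 7 were WT exercised array 5, which was low in slow fibre signal while the other 3 arrays of its group were high. On it Casq2 read 8.94 (others 10.17 to 10.34), Col15a1 10.40 (10.68 to 10.71), Dnajc3 7.92 (8.42 to 8.46) and Ppp1r3c 13.34 (13.77 to 13.83). Car3 read 14.07 there (13.16 to 13.31), Cd36 5.98 (5.26 to 5.33) and Glycam1 9.40 (4.39 to 4.66).

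WT exercised array 1 was low for Ankrd1, at 10.54 (others 11.99 to 12.27), and for Bag3, at 12.92 (13.29 to 13.35). WT exercised array 3 was low for Loxl1, at 11.38 (11.72 to 11.73), and WT exercised array 2 for Vac14, at 6.92 (7.37 to 7.42). TG unexercised array 5 was high for Mt1, at 13.31 (12.26 to 12.42), and TG unexercised array 8 for Retnlg, at 5.68 (4.47 to 4.64).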

How the results depend on the processing

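The count of called features was 0 under each alternative that kept the 13 arrays equally weighted, among them other scaling, filters, offsets, trend and robust variance, a lymphoid or slow fibre covariate, and thresholds of 7 and 8. It was 3 with all 24 arrays, 8 with all 24 and the lymphoid mean as covariate, and 607 with array weights. Leaving out 1 array gave 0 to 4: Mt1, Musk, Nrip1 and Stc2 passed without TG unexercised array 5, and Srxn1 without WT exercised array 1. The TG count was 0 to 1, with Cldn10 without TG exercised array 4, where 1 exercised TG array stood alone and was assumed to vary like the others, and Raver2 without TG unexercised array 11. The WT count, the genotype difference and the class difference stayed at 0 in each alternative run for them. Mt1 ranged from 0.92 to 1.65 over 34 alternatives, Mt2 from 1.17 to 1.87 and Ppargc1a from 0.63 to 1.40; adjusted p ran from 7.29e-05 to 1.00 for Mt1. With the replicate block the count was 0 and Mt1 differed by 0.92 (adjusted p 1.00), and with the number as a random block its correlation was -0.14.

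Of the values of named genes under alternatives 3251 kept direction and side of the threshold, 41 newly passed and 22 turned direction, all of the last from values that did not pass; the cause was not tested. With all 24 arrays these were Ccl21a 0.0262, Ccr7 0.144, Glycam1 0.0218, Hp 0.0691, Nr1d2 -0.0143 and Fbxo32 -0.0959 (-0.0921 with the lymphoid covariate). With array weights Csf3r was -0.00589. Within arrays of high slow fibre signal Csf3r was -0.0153, Fbxo32 -0.0532 and Retnlg -0.00808, and within those of low signal Fbxo30 was -0.0502, Glycam1 0.517 and Hp 0.327. The slow fibre alternatives within and between these classes were chosen after seeing the data. The genotype difference of Mt2 was 0.107 with the replicate block and -0.911 to 0.0585 when 1 array was left out, above 0 without TG exercised array 4 or WT unexercised array 11. The class difference of Mt2 was -0.442 to 0.161, above 0 without TG unexercised array 7 or WT unexercised array 11. That of Ppargc1a was -0.483 to 0.223, above 0 without TG unexercised array 4, WT exercised array 6 or WT unexercised array 11. Of 89 named genes with a run response recomputed, 24 moved by over 1.5 times when 1 of the 13 arrays was left out, with 0 of them called and 0 turning direction. Signal over background is the limit for 21 of the 109 named genes, which were under detection on part of the kept arrays, among them Cby1, Inpp5d, Arc, Cd36, Fcmr, Ccr7, Glycam1, Csf3r, Arid5b and Utrn.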
